A study of Homo sapiens with 12 samples.

Results

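Aminoacyl-tRNA synthetases are the enzymes that join each amino acid to its transfer RNA, the step that fixes the genetic code before the ribosome reads it. Human cells hold a cytosolic set and a mitochondrial set, mostly encoded by separate nuclear genes. Several cytosolic enzymes are held with 3 scaffold proteins in a multi-tRNA synthetase complex. In mammalian cells many of the cytosolic genes are known targets of ATF4, the transcription factor of the integrated stress response, which is made when amino acids run short or when eIF2 is phosphorylated. The family was taken from a fixed list of 32 genes and is described as 2 sets. The first holds 19 cytosolic synthetases and the 3 scaffold proteins, and the second holds 10 mitochondrial synthetases. Of the 32 genes, 26 were measured by a probe set that carries that gene's symbol alone, out of 11963 genes so measured on the array. These were 16 cytosolic synthetases, the scaffold protein AIMP1 and 9 mitochondrial synthetases. FARSB, MARS1, QARS1, AIMP2, EEF1E1 and MARS2 were not analysed here, MARS1 and QARS1 because their probe sets also carry another symbol.

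The samples were cultures of MDA-MB-231, an established human line of triple-negative breast cancer, kept in full medium with serum and exposed for 24 h. The groups were manassantin, a plant lignan that the series' design text names as manassantin A; rotenone, an inhibitor of respiratory complex I; digoxin, a glycoside drug that inhibits the Na+/K+ pump; and the vehicle DMSO. Each of the 4 groups had 3 Affymetrix arrays. The design text names digitoxin, a related glycoside, where the sample titles name digoxin, and the titles' name is used here; doses are not stated in the labels. The labels leave unsaid whether a group's 3 arrays are separate cultures; the p-values then reflect array-to-array spread alone, which may be technical.

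All values are log2 intensities of 1 probe set per gene, the brightest over the 12 arrays, and a difference of 1 is a change of 2-fold. A level is read only within a gene, since probe sets differ in brightness. Array medians lay between 5.881 and 5.995. A gene is called where limma's Benjamini-Hochberg adjusted p over all 11963 genes is under 0.05. Of 9 markers of the line, 8 lay above 5.747, the 40th percentile of all genes, below which a gene is called dim here; SPARC, at 3.85, did not. Of 8 genes known to be low in such cells 4 were dim, among them PGR and CDH1, while ERBB2, GATA3, EPCAM and ESR1 were not, and the 3 markers of blood and endothelial cells were all dim. The 18S ribosomal RNA control probe sets averaged 9.83 ± 0.48 with manassantin, 10.01 ± 0.15 with rotenone, 10.08 ± 0.16 with digoxin and 10.4 ± 0.32 with DMSO (log2, SD, n = 3 arrays each). Of the 26 measured genes only the mitochondrial RARS2 was dim.

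The promoters of the family are shown first for a short motif, because ATF4 with its C/EBP partners is known to bind elements with the core TGATGNAA. The motif was searched on both strands in windows of 300 bases, 250 before and 50 after an annotated start, from RefSeq's GRCh38.p14 table. It occurred in 3.62% of all 35116 windows, or in 4.46% of 27305 genes counted once. Windows were available for 29 of the 32 genes, and 8 of these held the motif, in at least one window where a gene had several. The unmeasured MARS1 was one of them. The 7 measured genes were CARS1, IARS1, NARS1, TARS1, GARS1 and AARS1 in the cytosolic set and YARS2 in the mitochondrial set. Their sites are printed with 16 bases on each side, 5′ to 3′ on the gene's strand, with the motif in capitals. Read on that strand, TTGCATCA and TTTCATCA are the motif on the opposite strand. The sites lie at chr11:3057402-3057441 (minus strand, CARS1), chr9:92293687-92293726 (minus, IARS1), chr18:57621799-57621838 (minus, NARS1), chr5:33440951-33440990 (plus, TARS1), chr7:30594829-30594868 (plus, GARS1), chr16:70289670-70289709 (minus, AARS1) and chr12:32756071-32756110 (minus, YARS2).
CARS1: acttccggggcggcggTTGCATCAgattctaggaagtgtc
IARS1: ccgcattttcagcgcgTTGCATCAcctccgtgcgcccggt
NARS1: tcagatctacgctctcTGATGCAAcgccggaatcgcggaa
TARS1: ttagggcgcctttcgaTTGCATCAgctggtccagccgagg
GARS1: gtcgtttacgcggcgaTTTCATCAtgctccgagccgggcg
AARS1: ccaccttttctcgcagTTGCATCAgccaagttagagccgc
YARS2: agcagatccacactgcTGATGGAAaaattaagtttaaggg
In CARS1, IARS1, NARS1, TARS1 and AARS1 the letters were TGATGCAA on one strand or the other. Counted from 1 at the start and from -1 before it, the motif began at -2 in CARS1, -13 in IARS1, -33 in GARS1, 3 in TARS1 and 15 in NARS1, and farther out at -187 in AARS1 and -197 in YARS2. A match is a description of letters and shows no binding in these cells.

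Digoxin moved most of the family, with calls in both directions. In bulk RNA, fewer cells that express a gene and less of its RNA per cell cannot be told apart. Of the 26 measured genes 15 fell and 6 rose against DMSO, where 26.9% of all genes fell and 28% rose, or 54.8% in either direction. With each array centred on its median, 5020 genes rose and 2685 fell in place of 3347 and 3214, and the family had 6 higher and 14 lower. In the cytosolic set 12 of 17 fell and 2 rose, and the median change was -0.391, beside 0.0651 over all genes. In the mitochondrial set 3 of 9 fell and 4 rose, with a median of 0.0387. The arrays of both groups did not overlap for 21 of the 26, or 80.8%, beside 61.9% of all genes.

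The largest fall was of EPRS1, which encodes the bifunctional enzyme that charges both glutamate and proline tRNA and sits in the complex. It read 8.11, 8.34 and 8.25 on the digoxin arrays, against 9.75, 9.78 and 9.71 on the DMSO arrays. Every digoxin array lay more than 1 log2 unit below every DMSO array. The difference was -1.51 ± 0.07 (SE, n = 3 arrays per group, limma adjusted p = 5.41e-09), so the digoxin level was 35.0% of that with DMSO. Its other probe sets gave -1.35 and -1.19. CARS1, the cysteinyl-tRNA synthetase, was the other gene past 2-fold. Its values were 10.14, 10.23 and 10.18 with digoxin, against 11.24, 11.32 and 11.28 with DMSO, and the difference was -1.10 ± 0.046 (adjusted p = 2.6e-09). A second CARS1 probe set gave -1.09. CARS1 carries the motif next to its start, while the EPRS1 window, with the largest fall of the family, holds no match. Both windows are printed whole, CARS1 at chr11:3057374-3057673 and EPRS1 at chr1:220046456-220046755, each on the minus strand, with the motif in capitals.
CARS1: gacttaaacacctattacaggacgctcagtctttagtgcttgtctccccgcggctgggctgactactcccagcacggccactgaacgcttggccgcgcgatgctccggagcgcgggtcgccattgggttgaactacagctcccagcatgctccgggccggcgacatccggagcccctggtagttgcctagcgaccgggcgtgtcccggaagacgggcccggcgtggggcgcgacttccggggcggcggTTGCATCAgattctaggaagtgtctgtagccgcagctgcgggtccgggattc
EPRS1: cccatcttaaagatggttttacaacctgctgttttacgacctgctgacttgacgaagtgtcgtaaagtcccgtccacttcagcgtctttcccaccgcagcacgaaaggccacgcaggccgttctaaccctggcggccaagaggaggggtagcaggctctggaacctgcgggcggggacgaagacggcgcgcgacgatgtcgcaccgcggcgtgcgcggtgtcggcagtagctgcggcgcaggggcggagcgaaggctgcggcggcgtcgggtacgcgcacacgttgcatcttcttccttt

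Next came a group of cytosolic enzymes that fell to between 62.3% and 71.0% of their DMSO level. NARS1, for asparagine, read 10.1, 10.2 and 10.17 with digoxin, against 10.79, 10.88 and 10.85 with DMSO (-0.68 ± 0.05, adjusted p = 2.51e-07). TARS1, for threonine, read 10.74, 10.85 and 10.88 with digoxin, against 11.51, 11.49 and 11.44 with DMSO (-0.66 ± 0.048, adjusted p = 2.31e-07). In both genes the groups were separated by several times the spread within either. LARS1, for leucine, had 7.86, 7.91 and 7.62 with digoxin, against 8.38, 8.47 and 8.42 with DMSO (-0.63 ± 0.076). Its probe set carries an x in its name, a type that can match several transcripts. Probe sets with an s can do so too, and these were used for EPRS1, GARS1, IARS1, FARSA, VARS1, YARS1, AIMP1 and WARS2. WARS1, for tryptophan, had 8.63, 8.79 and 8.62 with digoxin, against 9.3, 9.38 and 9.26 with DMSO (-0.63 ± 0.064), and its second probe set gave -0.35. GARS1, which charges glycine tRNA in both cytosol and mitochondria, stood at -0.51 and IARS1, for isoleucine, at -0.49. SARS1, for serine, fell by 0.39, to 76.3% of its DMSO level.

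Smaller falls were seen for AARS1 (-0.23), the alanine enzyme, for RARS1 (-0.23), the arginine enzyme, and for YARS1 (-0.21), the tyrosine enzyme, each with no overlap between the groups. AARS1 read 8.7, 8.57 and 8.51 with digoxin, against 8.91, 8.82 and 8.76 with DMSO, so its highest digoxin array lay just under its lowest DMSO array. HARS1, KARS1 and FARSA were not called. HARS1, for histidine, read 9.54, 9.48 and 9.53 with digoxin, against 9.55, 9.5 and 9.49 with DMSO, and the 95% interval of the difference ran from -0.09 to 0.09. For KARS1, the lysine enzyme that also serves mitochondria, it ran from -0.11 to 0.08, and for FARSA, a subunit of the phenylalanine enzyme, from -0.16 to 0.11. Changes of the size seen in NARS1 or TARS1 lie outside these intervals. A second KARS1 probe set gave 0.17 (adjusted p = 0.0375 over all probe sets).

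VARS1, for valine, was the cytosolic synthetase that rose. It read 9.13, 9.14 and 9.16 with digoxin, against 8.87, 8.82 and 8.83 with DMSO (0.30 ± 0.054, adjusted p = 0.000481), and its second probe set gave 0.32. AIMP1, a scaffold protein of the complex that is also released as a cytokine precursor, rose as well. It had 9.66, 9.83 and 9.73 with digoxin, against 9.18, 9.2 and 9.32 with DMSO (0.51 ± 0.063, adjusted p = 2.26e-05), while its second probe set gave 0.20. Within the complex EPRS1, LARS1, IARS1 and RARS1 therefore fell, AIMP1 rose and KARS1 was not called. The median of these 6 was -0.362, close to the -0.391 of the 11 measured cytosolic enzymes outside the complex, of which 8 fell and 1 rose. By structural class, 7 of 12 class I genes fell and 4 rose, and 7 of 12 class II genes fell and 1 rose, with medians of -0.223 and -0.222; EPRS1 has both folds and was left out of this count.

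**Figure D1:**
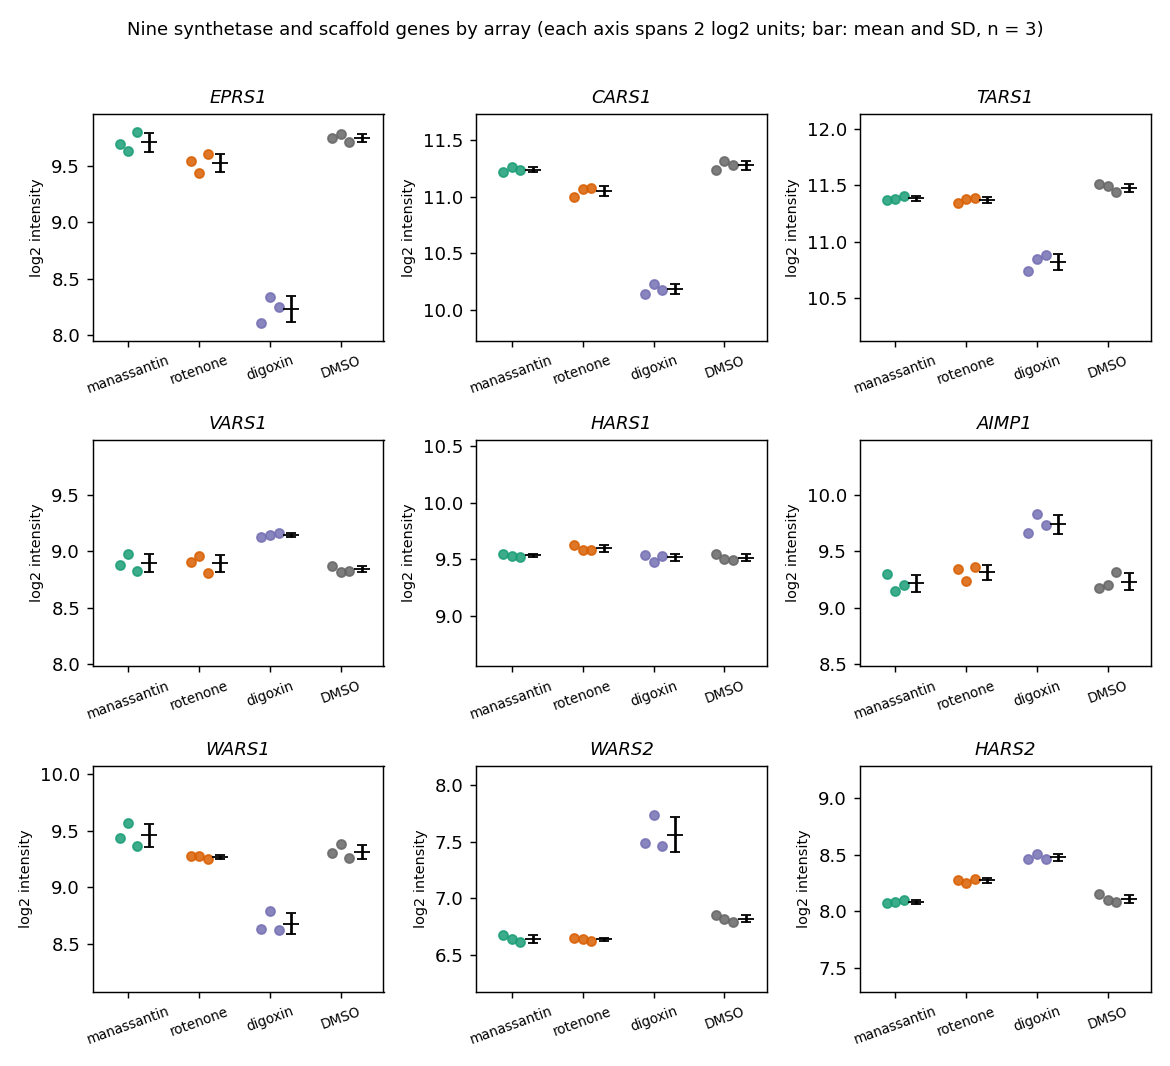
Log2 intensity (vertical axis) of 9 genes on each array, by treatment group; points are arrays, and the bar beside them is the mean with its SD over 3 arrays. EPRS1, CARS1, TARS1 and WARS1 lie lowest on the digoxin arrays, AIMP1, VARS1, WARS2 and HARS2 lie highest there, and HARS1 stays between 9.48 and 9.63 on all arrays.

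The cytosolic genes were also divided by a list of synthetases reported as ATF4 targets. Like the family, this list was chosen with earlier results of these data known, so the split is a description and no test. All 11 measured genes of that list fell with digoxin (AARS1, CARS1, EPRS1, GARS1, IARS1, LARS1, NARS1, SARS1, TARS1, WARS1 and YARS1), with a median of -0.628. Of the 5 cytosolic synthetases not in the list, RARS1 fell, VARS1 rose and FARSA, HARS1 and KARS1 were not called, with a median of -0.0139. Over all genes 26.9% fell. The promoter motif was counted by call over the whole family. Among genes that fell and had a window, 6 of 13 held it (46.2%), beside 4.46% of all genes. It was held by 1 of 5 of those that rose and 0 of 5 of those not called. The measured cytosolic synthetases with a window also held it in 6 of 13, whatever their call, and the mitochondrial set in 1 of 10. A link between motif and call was not tested. Within the ATF4 list EPRS1, SARS1 and WARS1 fell without a match in their windows, and LARS1 and YARS1 had no window.

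In the mitochondrial set the largest change was a rise of WARS2, for tryptophan. It read 7.49, 7.74 and 7.46 with digoxin, against 6.85, 6.82 and 6.79 with DMSO. All digoxin arrays lay above all others, and the difference was 0.74 ± 0.067 (adjusted p = 1.56e-06), or 167% of the DMSO level. HARS2, for histidine, had 8.46, 8.51 and 8.46 with digoxin, against 8.15, 8.1 and 8.08 with DMSO (0.37 ± 0.042, adjusted p = 1.09e-05). YARS2, for tyrosine, rose by 0.30 and LARS2, for leucine, by 0.26, and a second LARS2 probe set also gave 0.26. FARS2, for phenylalanine, fell: it read 8.16, 8.04 and 8.11 with digoxin, against 8.6, 8.61 and 8.67 with DMSO (-0.52 ± 0.057, adjusted p = 7.13e-06). Its other probe sets disagreed in size and sign, at -0.21 and, for a dim one, at 0.26. IARS2, for isoleucine, fell by 0.43, and SARS2, for serine, by 0.21; the SARS2 call was lost when arrays were centred on their medians (-0.123, adjusted p = 0.0637) or quantile normalized (-0.108, adjusted p = 0.105). NARS2 and the dim RARS2 were not called, with 95% intervals from -0.19 to 0.11 and from -0.11 to 0.19.

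Within the family, both the cytosolic and the mitochondrial gene were measured for 9 amino acids. With digoxin 3 of these pairs had a called fall of the cytosolic and a called rise of the mitochondrial gene: LARS1 at -0.63 with LARS2 at 0.26, WARS1 at -0.63 with WARS2 at 0.74, and YARS1 at -0.21 with YARS2 at 0.30. Both genes fell in 2 pairs, for isoleucine and serine. In the other 4 pairs only one gene was called: HARS2 rose, FARS2 fell, and NARS1 and RARS1 fell. The family's list leaves out CARS2, the mitochondrial gene for cysteine, so the pair with CARS1 is not among the 9. CARS2 read 7.5, 7.4 and 7.37 with digoxin, against 7.54, 7.44 and 7.41 with DMSO, and was not called. CARS1 stood at -1.10. The difference of the changes within a pair was not tested.

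**Figure D2:**
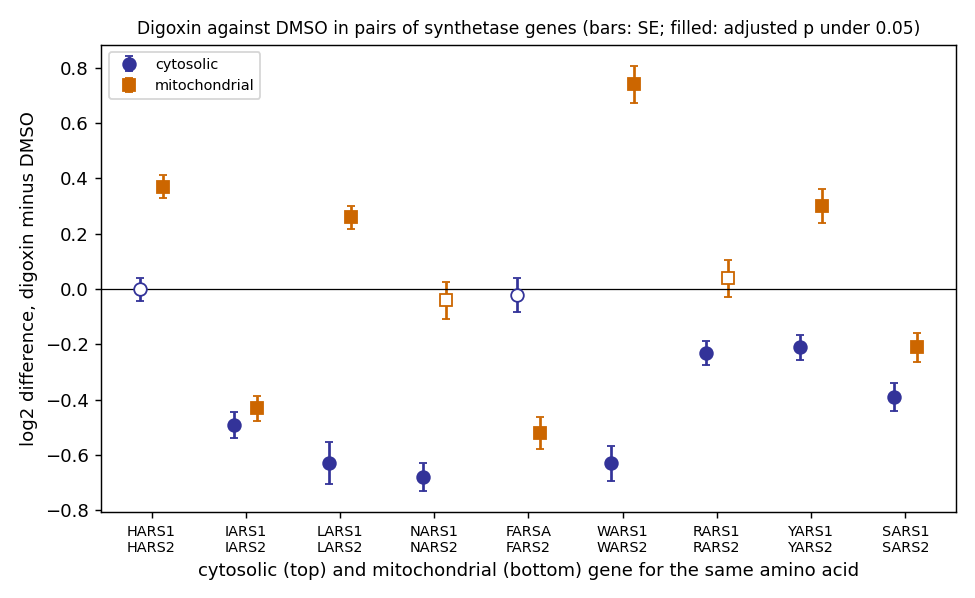
Log2 difference of digoxin minus DMSO (vertical axis) for 9 pairs of genes that serve the same amino acid; circles are cytosolic and squares mitochondrial genes, bars are SE over 3 arrays a group, and filled symbols have an adjusted p under 0.05. WARS1 (-0.63) and WARS2 (0.74) lie farthest apart, while IARS1 (-0.49) and IARS2 (-0.43) lie close together.

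The histidine pair is set apart by position, since HARS1 and HARS2 lie head to head on chromosome 5 and their promoter windows overlap. The shared 184 bases, at chr5:140691321-140691504 on GRCh38.p14, are printed on the plus strand, which is the strand of HARS2; they hold no match to the motif.
HARS1-HARS2: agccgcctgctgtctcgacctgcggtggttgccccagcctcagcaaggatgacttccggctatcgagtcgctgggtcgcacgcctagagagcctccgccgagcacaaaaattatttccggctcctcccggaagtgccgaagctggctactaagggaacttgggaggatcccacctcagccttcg
HARS2 rose with digoxin by 0.37, and also stood 0.17 higher with rotenone, while HARS1 stood at 0.00 with digoxin and at 0.08 with rotenone. The difference between the changes was not tested.

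Rotenone gave few calls in the family, and their number depended on the settings. Against DMSO 3 of 26 genes were called, 2 lower and 1 higher, or 11.5%, where 6.94% of all genes were called (3.55% higher and 3.39% lower). CARS1 read 11, 11.07 and 11.08 with rotenone, against 11.24, 11.32 and 11.28 with DMSO, a fall of 0.23 on the log2 scale (adjusted p = 0.0135). Both groups were compact and did not overlap, and a second CARS1 probe set gave -0.27. YARS1 had 10.29, 10.33 and 10.3 with rotenone, against 10.5, 10.51 and 10.45 with DMSO (-0.18 ± 0.045, adjusted p = 0.0364). HARS2 had 8.28, 8.25 and 8.29 with rotenone, against 8.15, 8.1 and 8.08 with DMSO (0.17 ± 0.042, adjusted p = 0.0362). EPRS1, at 9.54, 9.44 and 9.6 with rotenone, did not overlap DMSO either but was not called (-0.22 ± 0.07, adjusted p = 0.0856). Groups did not overlap for 15 of 26 genes, or 57.7%, beside 31.2% of all genes.

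The rotenone calls lay near the threshold. The YARS1 and HARS2 calls were lost when any one of the DMSO or rotenone arrays was left out, with adjusted p-values of 0.0713 to 0.123 and 0.0508 to 0.133, and with the 18S control as a covariate (0.0729 and 0.123). Leaving out manassantin replicate 3, which enters through the shared variance, also ended both (0.0526 and 0.0524). CARS1 was lost without DMSO replicate 2 (adjusted p = 0.0646) or without rotenone replicate 1 (0.0596). The count of 3 was 0 without DMSO replicate 2 or rotenone replicate 1, and 1 without DMSO replicate 1, DMSO replicate 3, rotenone replicate 2 or manassantin replicate 3. Other settings gave more calls in the family, and also over all genes, where the main fit called 3 and 6.94%. The family had 8 with dim genes left out (18.1% of all genes), 9 with array weights (13.5%) and 9 with a trended robust prior (11%). In the ATF4 list all 11 changes were below 0, with a median of -0.103, and in the 5 other cytosolic synthetases all were above 0, with a median of 0.0847, beside 0.0124 over all genes. Over all genes 5471 of 11963 changes lay below 0. Only 2 of the 11 were called, and 0 of the 5. Over the alternatives, which refit the same arrays, 10 to 11 of the 11 lay below 0 and 4 to 5 of the 5 above it. The list was chosen with earlier results of these data known, and the signs were not tested. The contrasts with rotenone and with digoxin share the DMSO arrays.

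With manassantin no gene of the family passed the test. By limma 0 of 26 were called, where 0.97% of all genes were (0.853% higher and 0.117% lower). An unadjusted limma p under 0.05 was found for 4 of the 26, beside 1896 of all 11963 genes. The changes lay between -0.18 and 0.15, with a median of -0.0202. WARS2 read 6.68, 6.64 and 6.61 with manassantin, against 6.85, 6.82 and 6.79 with DMSO, and stood at -0.18 ± 0.067 (adjusted p = 0.22). WARS1 stood at the other end, with 9.44, 9.57 and 9.37 with manassantin, against 9.3, 9.38 and 9.26 with DMSO (0.15 ± 0.064, limma adjusted p = 0.288). Its second probe set gave 0.01. Groups did not overlap for 7 of 26 genes, or 26.9%, beside 22.4% of all genes. Over the 26 genes the 95% intervals reached no lower than -0.32 and no higher than 0.29. EPRS1 stood at -0.04, CARS1 at -0.04 and HARS2 at -0.02.

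**Figure D3:**
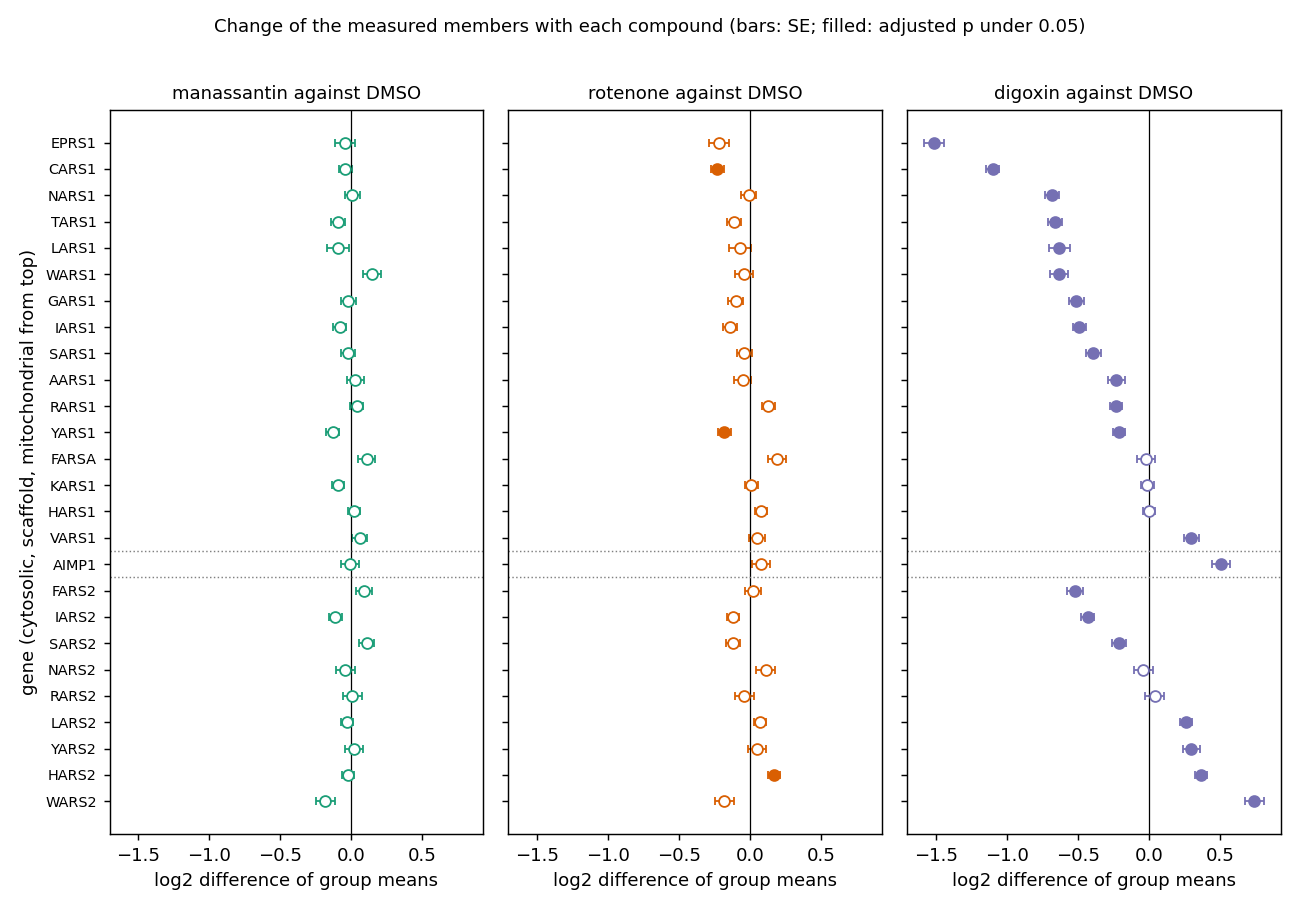
Log2 difference from DMSO (horizontal axis) of the 26 measured genes with each compound, sorted within the cytosolic, scaffold and mitochondrial groups by their change with digoxin; bars are SE over 3 arrays a group, and filled points have an adjusted p under 0.05. No point is filled with manassantin, 3 are filled with rotenone and 21 with digoxin, where the range runs from -1.51 for EPRS1 to 0.74 for WARS2.

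The compounds were also tested against each other. Manassantin against rotenone had 3 of 26 genes called, or 11.5%, beside 8.47% of all genes (4.69% higher and 3.78% lower). CARS1 was higher with manassantin by 0.19 and SARS2 by 0.23, and HARS2 was lower by 0.19. SARS2 read 6.35, 6.38 and 6.34 with manassantin, against 6.16, 6.14 and 6.06 with rotenone (adjusted p = 0.0186). With the replicate number as a block WARS1 was called too, at 0.185 with adjusted p = 0.032 (0.102 without the block). That fit called 4 of the 26, beside 11.3% of all genes. The count was 0 without manassantin replicate 1 or rotenone replicate 3, and 1 without manassantin replicate 2, rotenone replicate 1 or rotenone replicate 2.

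Against digoxin, manassantin had 14 genes higher and 6 lower, where 28.1% of all genes were higher and 28.6% lower (56.7% in all), and rotenone also had 14 higher and 6 lower, where 26.3% were higher and 24.2% lower (50.5% in all). EPRS1 was higher by 1.47 with manassantin and by 1.30 with rotenone, CARS1 by 1.06 and by 0.87, and WARS1 by 0.78 and by 0.59. WARS2 was lower by 0.92 in each contrast. These contrasts share the digoxin arrays. YARS1 was not called in either (0.08 and 0.04).

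Genes that handle the charged tRNA were followed in lists fixed alongside the family. XPOT, which exports mature tRNA from the nucleus, fell with digoxin. It read 8.24, 8.25 and 8.41 with digoxin, against 9.82, 10.0 and 9.97 with DMSO (-1.63 ± 0.07, adjusted p = 3.15e-09). It stood at -0.08 with manassantin and -0.11 with rotenone, neither called. Of 7 measured genes of tRNA export and delivery 2 rose and 2 fell with digoxin, 57.1% beside 54.8% of all genes: TSFM, the exchange factor for the mitochondrial elongation factor that carries tRNA, fell by 0.34, while EEF1D (0.20) and EEF1A2 (0.33) rose. EEF1A2, an isoform of the factor that brings charged tRNA to the ribosome, was also the 1 gene of this list called with manassantin. It had 7.02, 7.02 and 6.98 with manassantin, against 6.69, 6.6 and 6.6 with DMSO (0.38 ± 0.054, adjusted p = 0.0176). This call was lost in 7 of 22 alternatives (adjusted p of 0.0545 to 0.248): without any one manassantin array, DMSO replicate 2 or DMSO replicate 3, with the 18S covariate, and in a fit on the compared groups alone. Of a list of other synthetases and related genes 4 were measured: CARS2, GATB, GATC and QRSL1. CARS2, given above beside CARS1, was not called against DMSO with digoxin, rotenone or manassantin. GATB and GATC are subunits of, and QRSL1 encodes the catalytic subunit of, the amidotransferase that makes mitochondrial glutaminyl-tRNA. GATB fell with digoxin by 0.50, GATC rose by 0.41, and QRSL1 rose by 0.21 on its brightest probe set but stood at -0.073 (not called) as the mean of its probe sets; its call was also lost without DMSO replicate 2 (0.0917) or digoxin replicate 2 (0.0818).

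A list of the integrated stress response, which holds both regulators and targets, was examined as well. In it 12 of 22 measured genes fell and 6 rose with digoxin, 81.8% beside 54.8% of all genes. Whether they act on the family was not tested. ATF4 itself read 10.7, 10.83 and 10.8 with digoxin, against 11.02, 11.03 and 10.97 with DMSO (-0.23 ± 0.048, adjusted p = 0.00138). ATF4 is known to be controlled mainly at translation, which arrays do not read. ASNS, asparagine synthetase, read 9.19, 9.43 and 9.42 with digoxin, against 10.66, 10.66 and 10.55 with DMSO (-1.28 ± 0.067). CHAC1, a glutathione-degrading enzyme, fell by 1.16, and VLDLR, a lipoprotein receptor in the list, by 1.26. EIF2B3, a subunit of the exchange factor that recharges eIF2, fell by 1.31, while the subunit gene EIF2B2 rose by 0.50. ATF3 (1.63) and PPP1R15A (2.41), a stress factor and the subunit that directs eIF2 dephosphorylation, rose, and DDIT3 was not called (0.15, adjusted p = 0.164) but was with median centring (0.24, adjusted p = 0.0382). With rotenone ASNS (-0.26) and CHAC1 (-0.54) fell, ATF3 (0.78), PPP1R15A (0.42) and EIF2B2 (0.18) rose, and ATF4 stood at -0.17 (adjusted p = 0.056), with a call in 6 of 22 alternatives (0.00471 to 0.0498). Of these rotenone calls ATF3 held under all 22 alternatives. ASNS was lost in 9 and EIF2B2 in 14, both when any one DMSO or rotenone array was left out. CHAC1 was lost in 3 (without DMSO replicate 1, DMSO replicate 2 or rotenone replicate 2) and PPP1R15A in 2 (without rotenone replicate 2, and with the 18S covariate). With manassantin 0 of the 22 genes were called by limma, and ATF4 stood at -0.07. An unadjusted limma p under 0.05 was found for 3 of the 22, beside 1896 of all 11963 genes. EIF2AK4, the kinase that senses uncharged tRNA, and TRNT1, which adds the tRNA's terminal CCA, were not analysed here.

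**Figure D4:**
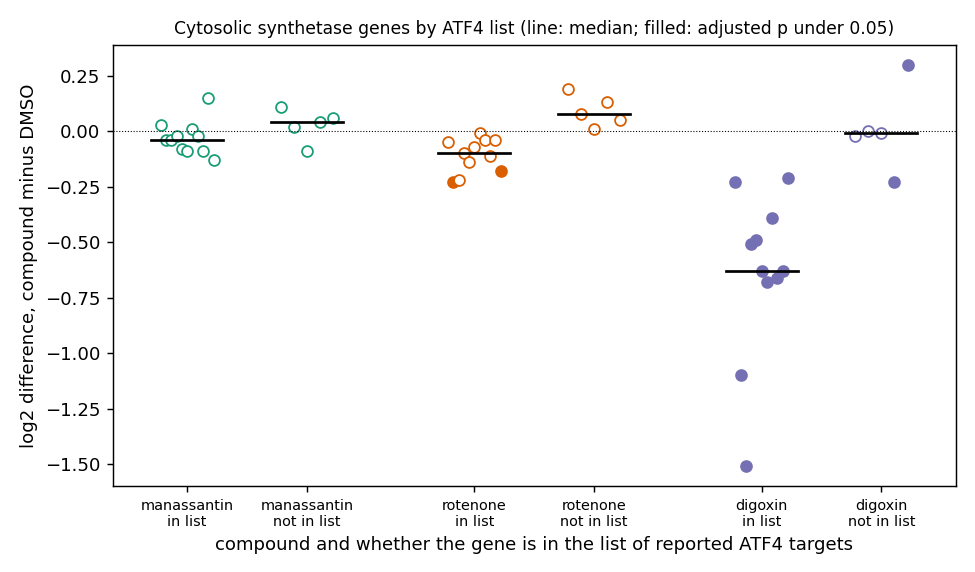
Log2 difference from DMSO (vertical axis) of the cytosolic synthetases, split for each compound into the 11 measured genes in the list of reported ATF4 targets and the 5 not in it; lines are medians and filled points have an adjusted p under 0.05. With digoxin all 11 listed genes are filled and below 0 (median -0.628), and the 5 others have a median of -0.0139. The list was chosen with earlier results of these data known.

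Earlier steps of tRNA production moved in both directions with digoxin. Of 19 measured genes of RNA polymerase III transcription 6 rose and 5 fell, or 57.9% beside 54.8% of all genes, with a median of 0.000858. POLR3G fell by 1.56, GTF3C2, a subunit of the factor that binds the internal tRNA promoter, by 1.28, and POLR3B, the second-largest polymerase subunit, by 1.15, while POLR1C (0.63) and POLR3D (0.55) rose. Of 16 genes of tRNA processing and splicing 9 fell and 4 rose, or 81.2% beside the same 54.8%, with a median of -0.296. RPP40 (-1.18) and POP5 (-0.92) fell while RPP30 (0.76) and RPP14 (0.66) rose, all 4 of them protein subunits of RNase P, which trims the 5′ end of tRNA. TSEN34, a subunit of the tRNA splicing endonuclease, fell by 0.69. Of 38 tRNA modification genes 14 fell and 11 rose, or 65.8%, with a median of -0.00854. The pseudouridine synthases PUS3 (-0.78) and PUS7 (-0.65), the deaminase ADAT1 (-0.61), the tRNA methyltransferase TRDMT1 (-0.61) and the dim MOCS3 (-0.59), of the tRNA thiolation pathway, were among those that fell. With rotenone 4 of the 19 polymerase III genes rose and 0 fell, GTF3C4 by 0.42, POLR1C by 0.25, POLR1D by 0.17 and GTF3C5 by 0.17, beside the shares of all genes given above. In the processing list RPP25 (0.39), an RNase P subunit, and CLP1 (0.18), an RNA kinase of tRNA splicing, rose and 0 of 16 fell. Of 38 modification genes FTSJ1 (0.17) rose and the modifying-enzyme genes TRMT11 (-0.30) and GTPBP3 (-0.20) fell. Of these 9 rotenone calls GTF3C4 and RPP25 held under all 22 alternatives. GTF3C5 was lost in 15, FTSJ1 in 14, POLR1D in 13 and CLP1 in 9, each when any one DMSO or rotenone array was left out. TRMT11 was lost in 8, POLR1C in 6 and GTPBP3 in 6, each without any one of 5 of those 6 arrays. With manassantin limma called 0 genes in the lists of polymerase III transcription, processing and modification. Unadjusted p-values under 0.05 were found for 1 of 19, 4 of 16 and 4 of 38 genes, beside 1896 of all 11963.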

How the data were processed

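RNA of MDA-MB-231 cells was purified on columns, and amplified targets were hybridized to GeneChip arrays, per the labels. The authors deposited probe set values that were read as log2 intensities on a common scale, from their range of 1.655 to 13.75; background correction, summarisation and normalization stand in none of the sources used here. Groups and replicate numbers came from the sample titles.

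Of 22277 probe sets, 19064 carried 1 gene symbol in the platform annotation, 1043 several and 2108 none, beside 62 controls; 19052 matched a current gene record and 12 kept the annotation's symbol. The brightest probe set over 12 arrays stood for each of 11963 genes. A linear model per gene came from limma 3.58.1 (R 4.3.3; lmFit, then eBayes) over the 12 arrays with a term for group alone, leaving 8 residual degrees of freedom beside a prior worth 3.68, with Benjamini-Hochberg adjustment over all genes within a comparison. The number of arrays limits the precision. Motifs were read from RefSeq promoter windows with Python 3.11.15; matplotlib 3.10.9 made the figures.

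The family and the gene lists were chosen with earlier results of these data known. Named were all measured genes of the family and, of each list, up to 5 called genes with the largest change against DMSO in a comparison, with ATF4, XPOT, DDIT3 and ASNS in any case. CARS2 was named as well, as the mitochondrial gene beside CARS1. Same-numbered arrays deviated together for manassantin and rotenone (correlations of 0.107 to 0.362). What the number marks is unstated, so the main fit has no block, and the block is an alternative. In the 5 other comparisons at least 1 correlation was under 0.1. Alternatives were a block for the replicate number, arrays quantile normalized or centred on their medians, genes under the 40th percentile left out, probe sets averaged per gene, adjustment over every probe set, array weights, a prior that is trended and robust, a fit on the compared groups alone, the 18S control as a covariate, and leaving out each array in turn.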

Additional observations from a re-analysis of the deposited data

How the results depend on the processing

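With digoxin against DMSO 20 to 21 of 26 genes were called under all 22 alternatives, and 20 of the 21 calls held under every one; the exception was SARS2. Manassantin against DMSO gave 0 throughout. Manassantin against digoxin gave 20 to 21 calls and rotenone against digoxin 18 to 21; in the second, AARS1, FARSA and FARS2 lost their call somewhere. No called gene of the family changed direction under any alternative. For rotenone against DMSO the 3 calls became 8 without the dim genes, 9 under array weights, 9 under the trended robust prior, 1 with adjustment over every probe set and 1 with the 18S covariate, where the calls over all genes became 1301 (of 7178 genes), 1614, 1312, 653 and 339 against 830, and 0 to 4 with one array left out; the cause was not tested. For manassantin against rotenone the 3 became 5 with a trended robust prior and 1 in a fit on the compared groups alone, and 0 to 3 with one array left out. The replicate block gave 4 there, WARS1 (0.185) being added, and changed no call of the family in the other 5 comparisons. Among listed genes the block added DDIT3 with digoxin (0.153, adjusted p = 0.0217) and, with rotenone, ATF4 (-0.168, 0.0475), RPP40 (-0.201, 0.0436) and POLR3B (-0.255, 0.05 after rounding). QRSL1 turned to -0.073 with digoxin as the mean of its probe sets. Median centring moved the digoxin calls over all genes to 5020 higher and 2685 lower, against 3347 and 3214 as deposited, while the family kept 6 higher and had 14 lower. Depth in the sense of read counts does not apply to arrays; RARS2 lay near the floor, so its values have little meaning.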

Other observations

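Several genes of the family had more than one probe set, and these differed in the size of the change with digoxin against DMSO. AIMP1 stood at 0.51 on the brighter and 0.20 on the other, WARS1 at -0.63 and -0.35, and EPRS1 at -1.51, -1.35 and -1.19. FARS2 stood at -0.52, -0.21 and, on a dim probe set, 0.26, each with an adjusted p under 0.05 over all probe sets. In rotenone against DMSO the dimmest EPRS1 probe set stood at -0.46 (limma adjusted p = 0.0468 over all probe sets), where the brightest stood at -0.22 (0.11).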
